A study of Arabidopsis thaliana with 48 samples.

Results

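The 38 genes described here encode the enzymes and proteins that make leaf starch and take it apart again in *Arabidopsis thaliana*, 16 of them grouped under synthesis and 22 under breakdown, out of 34262 genes in the count table. They were chosen by gene identifier from knowledge of the pathway and not by their expression. Transcripts of cut leaves were counted by RNA sequencing in 48 libraries, with 3 replicates for each of 16 hours. The first sampling was 19.5 h after the treatment, the last at 27 h, and the step between them was 0.5 h. All groups shared the same treatment and differed only in the hour of sampling: the fourth rosette leaves of 21-day-old plants were cut at the petiole, floated on 3 mM MES buffer, kept in the dark at 16°C for 24 h, and then moved to continuous white light at 22°C. The labels give no genotype for these plants, and no attached leaves, untreated leaves or other genotype were among the samples, so a value can be compared only with the other hours. It is not stated whether the 3 replicates came from separate plants or plates, so p-values reflect only how far these libraries differed, and that spread may be technical. Levels are given in CPM, a gene's count scaled to the TMM-corrected size of its library.

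Starch is the carbon store that leaf chloroplasts build in the light and use up in the dark. ADP-glucose pyrophosphorylase (AGPase) makes the sugar donor ADP-glucose, starch synthases lengthen glucan chains with it, branching enzymes add branch points, and an isoamylase complex trims them so that the polymer can crystallise into granules. For breakdown, dikinases place phosphate on the granule surface and loosen it, and phosphatases take the phosphate off again. Beta-amylases release maltose from the chain ends. Debranching enzymes, alpha-amylase and the plastid disproportionating enzyme and phosphorylase handle the rest before maltose and glucose leave the chloroplast. The cytosolic transferase and phosphorylase act after export. Many of these genes are known to cycle over the day in attached leaves, with transcripts of several breakdown enzymes peaking together toward dusk.

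The promoters of the genes are shown first, since members that moved together could be compared by sequence. In the 250 bases before the annotated gene start (RefSeq annotation of TAIR10.1, both strands searched), the G-box CACGTG, a site bound by bHLH and bZIP factors, was found in 11 of 38 promoters (28.9%), against 6.49% of 27443 promoters of protein-coding genes. The 11 were *PGI1*, *SS1*, *SS3*, *SS4*, *SBE2.1*, *LSF1*, *BAM2*, *BAM9*, *DPE1*, *PHS1* and *PHS2*. The windows of 5 of them are printed with the G-box in capitals: *DPE1*, *SS4* and *PHS1* because they hold more than 1 copy, and *PHS2* and *BAM9* because their ratio of highest to lowest time point mean was the widest of the 11. They lie at chr5:25928882-25928941 (minus strand, *DPE1*), chr4:10081977-10082036 (plus strand, *SS4*), chr3:11252701-11252760 (plus strand, *PHS1*), chr3:17306834-17306883 (minus strand, *PHS2*) and chr5:6225849-6225908 (plus strand, *BAM9*).
DPE1: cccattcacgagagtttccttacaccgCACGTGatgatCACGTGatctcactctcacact
SS4: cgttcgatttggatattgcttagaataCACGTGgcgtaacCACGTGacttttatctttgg
PHS1: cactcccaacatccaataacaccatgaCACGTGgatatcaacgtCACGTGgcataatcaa
PHS2: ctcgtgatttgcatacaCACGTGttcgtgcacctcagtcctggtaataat
BAM9: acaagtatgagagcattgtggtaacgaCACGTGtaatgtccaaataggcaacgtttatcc

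The evening element AAAATATCT, a site bound by the clock proteins CCA1, LHY and their REVEILLE relatives, was found in the promoters of *PGM1*, *PWD* and *ISA3*, 3 of 38 (7.89%), against 2.36% of all promoters. It is shown for *PWD* (chr5:9261229-9261478, plus strand) and *ISA3* (chr4:5783659-5783908, plus strand), 2 breakdown genes whose transcripts rose over the window, where it starts 33 and 39 bases before the gene start. The capitals mark its reverse complement.
PWD: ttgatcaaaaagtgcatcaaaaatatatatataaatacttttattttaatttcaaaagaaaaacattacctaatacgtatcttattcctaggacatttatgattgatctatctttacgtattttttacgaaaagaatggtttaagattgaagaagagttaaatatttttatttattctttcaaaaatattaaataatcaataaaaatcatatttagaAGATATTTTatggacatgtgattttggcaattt
ISA3: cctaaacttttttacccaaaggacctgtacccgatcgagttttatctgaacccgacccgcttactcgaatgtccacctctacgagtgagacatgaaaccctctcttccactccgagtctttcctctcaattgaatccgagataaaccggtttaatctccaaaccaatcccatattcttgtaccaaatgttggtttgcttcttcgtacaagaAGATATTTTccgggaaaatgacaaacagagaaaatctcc
The related CCA1-binding site AAAAATCT was in the promoters of *SBE2.2*, *ISA1*, *AMY1* and *DPE2* (10.5%, against 6.69% of all promoters), and TATCCA, a sugar-response element known from rice alpha-amylase promoters, was in 5 (13.2%, against 13.6%). None of these motifs contains another. A match is a stretch of letters in this window, and binding was not measured.

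Gene positions below are those of RefSeq's TAIR10.1 annotation. Libraries held 23572988 to 38763552 counted reads, with 21312 to 22495 genes detected, and the 38 genes together took 0.313% to 0.642% of the reads of a library. At this depth a library held 9 reads or more of each member. The libraries of 1 time point were not always alike: 26 of 48 correlated best with a library of another time point over 11461 genes above 10 CPM. This correlation was taken on log2(CPM + 1) after each gene's mean over the 48 libraries was subtracted. Over the starch genes, a library lay a median of 0.171 log2 from the mean of the other two of its hour, but 3 stood far apart: 22.5 h replicate 1 by 0.728, 24 h replicate 3 by 0.547 and 26 h replicate 2 by 0.721. By the same correlation, the first of these was most like a 21 h library, the second to a 25.5 h library and the last to a 24 h library. *GWD1* shows the size of this disagreement, with 639, 189 and 199 CPM in replicates 1, 2 and 3 at 22.5 h and 493, 711 and 205 CPM at 24 h. The widest ratio between the libraries of 1 hour was at 22.5 h in 13 of 38 genes, at 24 h in 9 and at 26 h in 10, so counts are given below also without these libraries. Leaf cells were well represented: *RBCS1A*, *RCA* and *LHCB2.1*, markers of photosynthetic mesophyll, averaged 4061, 7035 and 5223 CPM. The phloem marker *SUC2* averaged 318 CPM and the guard cell marker *KAT1* 20.7 CPM, whereas the root markers *RHD6* and *IRT1* were at or near 0 and *PYK10*, another root marker, averaged 12.8 CPM. In such bulk samples, fewer cells of a type and less RNA per cell cannot be told apart.

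Of the 38 genes, 37 had a mean of at least 1 CPM and entered the tests (edgeR, quasi-likelihood). *AMY1* (AT4G25000), which encodes a secreted alpha-amylase, was not, at 0.301 to 3.89 CPM. Levels differed between time points in 29 of the 37 (78.4%), against 64% of all 17562 genes tested. The 8 that did not pass were *APL2*, *APL3*, *APL4*, *SBE2.2*, *ISA2*, *BAM4*, *BAM5* and *MEX1*. The median ratio of the highest to the lowest time point mean was 2.17, against 1.59 over all genes tested. The map of time point means shows that 16 genes were highest at 19.5 h, the start of the window, and 10 at 27 h, its end.

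**Figure D1:**
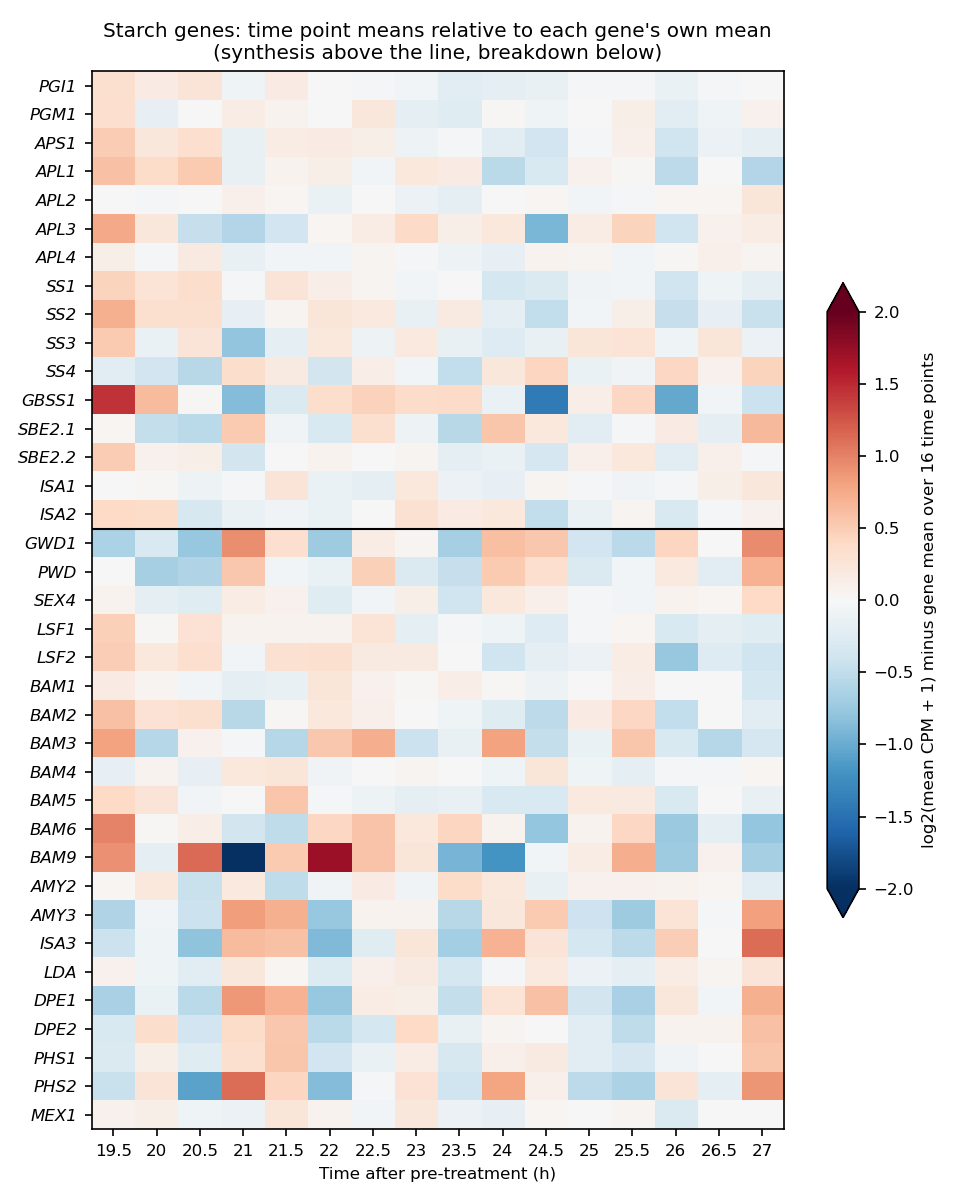
Mean level of each starch gene at each hour (n = 3 libraries), as log2(CPM + 1) minus the gene's own mean over the 16 time points, with synthesis genes above the line and breakdown genes below it. Red is above and blue below that mean. The colours change between 21 and 22 h and between 24.5 and 25.5 h for *GWD1*, *AMY3*, *DPE1* and *PHS2*, and *BAM9* has the opposite colours at 21 and 22 h.

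A slow trend, given as the log2 change of a fitted straight line over the whole window, was called in 16 genes, against 55.5% of all genes tested. It was a rise in 5 of 37 (13.5%, against 29.7% of all genes tested) and a fall in 11 (29.7%, against 25.8%). The median trend was -0.04 for the starch genes and 0.03 for all genes tested. On the synthesis side *SS4* and *SBE2.1* rose and 6 of 16 genes fell, and on the breakdown side *GWD1*, *PWD* and *ISA3* rose and 5 of 21 fell. Without the 3 libraries named above, 12 genes rose (32.4%, against 30.7% of all genes tested) and 13 fell (35.1%, against 27.6%). Cell type markers moved over the same window: the mesophyll markers *RBCS1A*, *RCA*, *LHCB2.1* and *CA1* fell (trends of -0.97 ± 0.14, -1.16 ± 0.17, -1.26 ± 0.14 and -3.08 ± 0.31, SE), as did *ATML1* of the epidermis (-0.53 ± 0.10) and *SUC2* of the phloem (-0.68 ± 0.11), while the guard cell marker *KAT1* rose by 0.50 ± 0.10. The guard cell markers *MYB60* and *FAMA* and the phloem marker *SULTR2;2* had no called trend, and *PDF1* of the epidermis was too low to test. Their part in the trends of the starch genes was not tested.

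**Figure D2:**
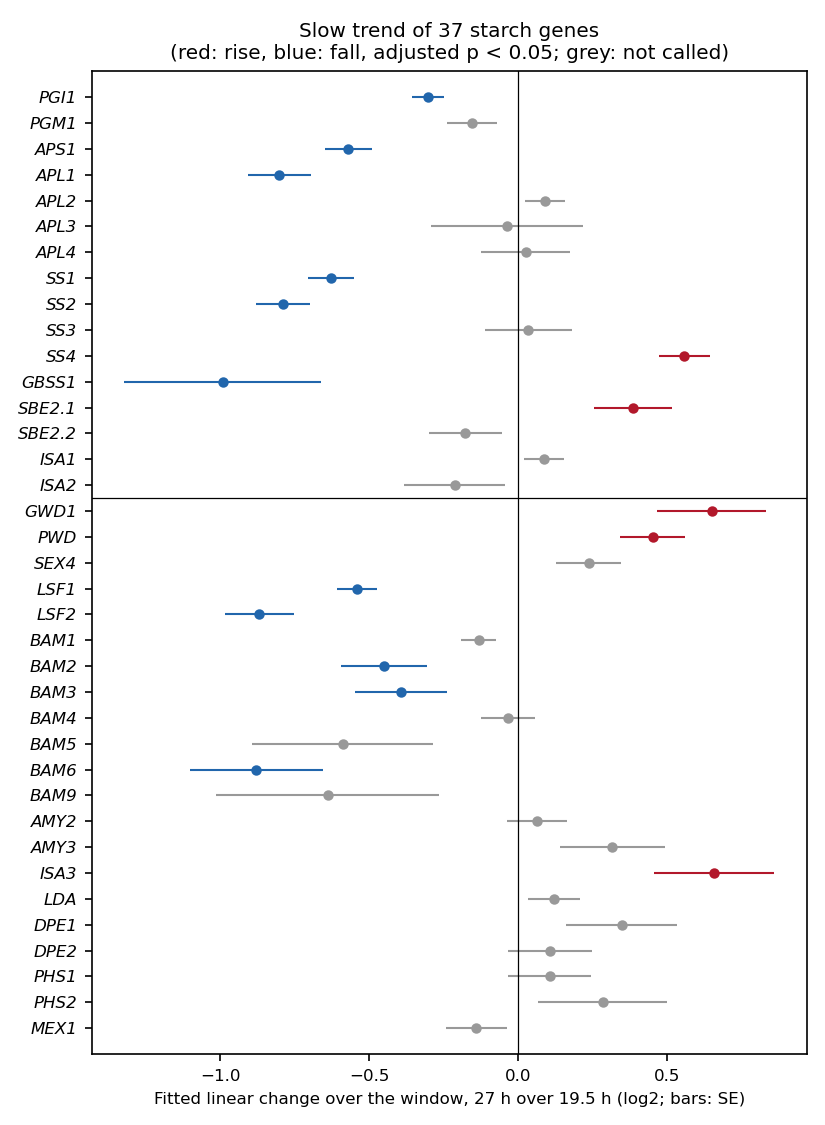
Slow trend of each tested gene, as the log2 change of the fitted line between the first and last hour, with its standard error as a bar. Genes in red rose (*SS4*, *SBE2.1*, *GWD1*, *PWD*, *ISA3*) and genes in blue fell, from -0.30 for *PGI1* to -0.99 for *GBSS1*, while grey genes passed no test of the trend.

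*PGI1* (AT4G24620), the plastid phosphoglucose isomerase, averaged 72.2 ± 4.11 CPM at 27 h and 89.6 ± 6.52 CPM at 19.5 h (SD, n = 3 each), a trend of -0.30 ± 0.05 (SE, adjusted p = 1.76e-05). *PGM1* (AT5G51820), the plastid phosphoglucomutase, had 54, 52.9 and 48.3 CPM at 23.5 h, its lowest hour, against 78.7, 82.6 and 71.2 CPM at 19.5 h, its highest. These libraries did not overlap, but the trend of *PGM1* missed the threshold (-0.16 ± 0.08, adjusted p = 0.112), while its levels differed between time points (adjusted p = 0.0190).

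AGPase is a tetramer of small catalytic and large regulatory subunits. *APS1* (AT5G48300), the catalytic small subunit, had 304, 283 and 292 CPM at 27 h, against 474, 468 and 488 CPM at 19.5 h. *APL1* (AT5G19220), the main large subunit of leaves, had 90.9, 79.1 and 74.4 CPM at 27 h, against 182, 173 and 200.03 CPM at 19.5 h. Both fell with no overlap between the first and the last hour, with trends of -0.57 ± 0.08 for *APS1* (adjusted p = 5.24e-07) and -0.80 ± 0.11 for *APL1* (adjusted p = 1.76e-07). *APL3* (AT4G39210), a large subunit known from sink tissues and induced by sugar, spread more widely: it had 83, 128 and 106 CPM at 24.5 h, its lowest hour, against 237, 365 and 409 CPM at 19.5 h, its highest. Its replicates disagreed up to 6.07 times within 1 hour, and it passed no test. The other large subunits were low, with *APL2* (AT1G27680) at 11.1 to 16.8 CPM and *APL4* (AT2G21590) at 1.89 to 4.49 CPM, and neither passed a test.

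Of the 5 starch synthases 3 fell (60%, against 25.8% of all genes tested) and 1 rose (20%, against 29.7%). *GBSS1* (AT1G32900, chr1:11920390-11923866, minus strand), the granule-bound synthase that makes amylose, was the member with the steepest fall (-0.99 ± 0.33, adjusted p = 0.0117). It had 108, 166 and 127 CPM at 24.5 h, its lowest hour, against 724, 1096 and 1120.1 CPM at 19.5 h, a ratio of 7.33 between the means, with no overlap. At 22.5 h its 3 libraries ran from 64.4 to 983 CPM, a ratio of 15.3 within 1 hour. The trend was lost without replicate 2 or without the 19.5 h libraries. The soluble synthases *SS1* (AT5G24300) and *SS2* (AT3G01180), which extend short and intermediate amylopectin chains, fell, with trends of -0.63 ± 0.08 (adjusted p = 4.17e-08) and -0.79 ± 0.09 (adjusted p = 1.39e-08). *SS2* had 32.2, 30.5 and 29.5 CPM at 27 h, against 69.1, 71.8 and 66.7 CPM at 19.5 h. *SS3* (AT1G11720), which extends long chains, passed no test of the trend but varied with time (adjusted p = 0.00996), with 22.8, 21.4 and 23.5 CPM at 21 h, its lowest hour, against 56.1, 53 and 62.5 CPM at 19.5 h. *SS4* (AT4G18240, chr4:10082108-10087203, plus strand), the synthase that starts new granules, went the other way and rose by 0.56 ± 0.09 (adjusted p = 2.70e-06), with 44.8, 50.2 and 56.1 CPM at 27 h and 36.7, 29.1 and 28.6 CPM at 19.5 h and no overlap. This rise was not steady, since *SS4* averaged 47.2 ± 3.63 CPM at 21 h and 28.3 ± 2.93 CPM at 22 h (SD, n = 3 each).

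Of the 2 branching enzymes 1 rose (50%, against 29.7% of all genes tested). *SBE2.1* (AT2G36390) had 155, 174 and 196 CPM at 27 h, against 78.8, 87.6 and 61.2 CPM at 23.5 h, its lowest hour, and rose by 0.38 ± 0.13 (adjusted p = 0.0130). That rise was lost without replicate 2 and without the 20, 20.5 or 27 h libraries, and the *SBE2.1* mean was already 161 ± 25.7 CPM at 21 h (SD, n = 3). *SBE2.2* (AT5G03650) had 113, 125 and 135 CPM at 21 h, its lowest hour, against 206, 229.9 and 252 CPM at 19.5 h, and narrowly missed the threshold for a difference between time points (adjusted p = 0.0537). The trends of the paralogs, 0.38 ± 0.13 and -0.18 ± 0.12, were not tested against each other. Of the isoamylase complex that trims amylopectin, the catalytic *ISA1* (AT2G39930) stayed within 64.3 to 112 CPM in all libraries and its partner *ISA2* (AT1G03310), which lacks activity of its own, ran from 48.3 to 148 CPM. *ISA1* differed between time points (adjusted p = 0.00877) with no called trend. *ISA2* had 59.4, 68.1 and 73.4 CPM at 24.5 h, against 95.6, 128 and 148 CPM at 19.5 h, and no test of it passed.

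On the breakdown side, both glucan phosphorylating enzymes rose, against 29.7% of all genes tested. *GWD1* (AT1G10760, chr1:3580830-3590928, minus strand), the glucan water dikinase that starts the attack on the granule, had 555, 587 and 652 CPM at 27 h, against 195, 191 and 214 CPM at 19.5 h. *PWD* (AT5G26570, chr5:9261479-9267732, plus strand), the phosphoglucan water dikinase that acts after it, had 201, 229.9 and 254 CPM at 27 h, against 149.7, 143 and 128 CPM at 19.5 h. All libraries at 27 h lay above those at 19.5 h in both genes, and the fitted rises were 0.65 ± 0.18 (adjusted p = 0.00334) and 0.45 ± 0.11 (adjusted p = 7.56e-04). Both rises rest on the end of the window, since they missed the threshold without the 27 h libraries, and that of *GWD1* also without replicate 2. Neither was steady: *GWD1* averaged 590 ± 95.6 CPM at 21 h and 188 ± 17 CPM at 22 h (SD, n = 3 each). *PWD* averaged 206 ± 28.9 and 128 ± 8.25 CPM at these hours.

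Of the phosphatases and their relative that act on the same phosphate, 2 of 3 fell (66.7%, against 25.8% of all genes tested). None rose, against 29.7% of all genes tested. *LSF2* (AT3G10940), which removes phosphate from the C3 position of glucose units, fell with a trend of -0.87 ± 0.12 (adjusted p = 2.02e-07), with 13, 13.7 and 13.3 CPM at 27 h against 24.1, 25.3 and 27.5 CPM at 19.5 h. *LSF1* (AT3G01510), a relative without phosphatase activity that binds beta-amylases, fell with a trend of -0.54 ± 0.07 (adjusted p = 5.46e-08), with 19.3, 19.5 and 18.6 CPM at 27 h against 34.4, 30.6 and 31.8 CPM at 19.5 h. Neither gene's libraries overlapped between these hours. The *LSF1* model shares the same strand and part of its coordinates with *CA1*, a carbonic anhydrase gene that itself fell (trend of -3.08 ± 0.31), and its part in the *LSF1* values was not tested. *SEX4* (AT3G52180), the main phosphoglucan phosphatase, had 168, 179 and 196 CPM at 27 h and 140.2, 129 and 164 CPM at 19.5 h, with a trend of 0.24 ± 0.11 that missed the threshold (adjusted p = 0.0644). Its difference between time points was close to the threshold (adjusted p = 0.0464) and was lost in 11 of 27 alternative analyses.

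Of the 7 beta-amylase genes 3 fell (42.9%, against 25.8% of all genes tested) and none rose (against 29.7%). Between time points 5 differed (71.4%, against 64%). *BAM3* (AT4G17090), the main maltose-producing enzyme of leaf chloroplasts and the most abundant member per kilobase, had 252, 258 and 324 CPM at 21.5 h, its lowest hour, against 788, 829 and 559 CPM at 19.5 h. Its downward trend of -0.39 ± 0.15 was close to the threshold (adjusted p = 0.0310) and was lost in 7 of 27 alternative analyses. *BAM6* (AT2G32290), a plastid enzyme, fell with a trend of -0.88 ± 0.22 (adjusted p = 0.00125), with 4.75, 4.18 and 4.77 CPM at 27 h against 17.2, 19.5 and 17 CPM at 19.5 h. *BAM2* (AT4G00490), a plastid enzyme of low activity, fell with a trend of -0.45 ± 0.15 (adjusted p = 0.00898), with 35.5, 30.9 and 27.4 CPM at 27 h against 52.8, 52.6 and 61 CPM at 19.5 h. The fall of *BAM2* was lost without replicate 2 or the 19.5 h libraries. *BAM1* (AT3G23920, chr3:8641181-8644449, plus strand), an active chloroplast enzyme known from guard cells and stress responses, varied over a small range and is described with the 2 to 5 h variation. The proteins without catalytic activity gave contrasting profiles. *BAM4* (AT5G55700) stayed at 16.2 to 30.2 CPM, whereas *BAM9* (AT5G18670, chr5:6225956-6228195, plus strand) ran from 7.76 to 232 CPM. The *BAM9* libraries had 232, 205 and 144 CPM at 22 h, against 9.33, 16 and 7.76 CPM at 21 h, a ratio of 17.5 between the means and the largest of the group. *BAM9* replicates also disagreed within an hour, with 15.5, 49.6 and 196 CPM at 22.5 h. *BAM5* (AT4G15210), a cytosolic enzyme of the phloem, was at 0.505 to 3.73 CPM and passed no test.

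All remaining breakdown genes tested, *MEX1* (AT5G17520) aside, were lower at 22 h than at 21 h in all 3 libraries without overlap. The share over all genes tested was 22.6%, and this step was chosen after the values were seen. Of the breakdown genes described above, *GWD1*, *PWD* and *BAM4* were also lower, whereas *LSF2*, *BAM1*, *BAM2*, *BAM6* and *BAM9* were higher at 22 h. *AMY3* (AT1G69830, chr1:26288228-26293173, minus strand), the chloroplast alpha-amylase, had 40.4, 35.7 and 37 CPM at 22 h, against 109.7, 115 and 124 CPM at 21 h. *DPE1* (AT5G64860, chr5:25925173-25928879, minus strand), the plastid disproportionating enzyme that recycles maltotriose, had 20.2, 21.2 and 24.3 CPM at 22 h, against 66.6, 69.4 and 72.6 CPM at 21 h. *PHS2* (AT3G46970, chr3:17301394-17306633, minus strand), the cytosolic glucan phosphorylase, had 166, 106 and 94.9 CPM at 22 h, against 379, 489 and 585 CPM at 21 h. In each of these genes the levels at 21 h were at least 2.28 times those at 22 h when the closest libraries are compared. *ISA3* (AT4G09020, chr4:5783909-5789100, plus strand), the isoamylase that debranches glucans released in breakdown, had 259.6, 262 and 291 CPM at 27 h, against 86.1, 57.8 and 57.8 CPM at 22 h, and rose over the window by 0.66 ± 0.20 (adjusted p = 0.00674). That rise was lost without the 20.5 or 27 h libraries, and the *ISA3* mean was already 194 ± 53.5 CPM at 21 h (SD, n = 3). *DPE2* (AT2G40840), the cytosolic transferase that uses exported maltose, and *PHS1* (AT3G29320), the plastid phosphorylase, were highest at 27 h (276 ± 18.3 and 319.6 ± 15 CPM) and lowest at 22 h (127 ± 18.6 and 166 ± 27.1 CPM), with no called trend. *LDA* (AT5G04360), the limit dextrinase, ran from 17.4 to 33 CPM and *AMY2* (AT1G76130), an alpha-amylase outside the plastid, from 42.6 to 102 CPM. Both varied with time (adjusted p = 0.00497 and 0.00355) without a trend. *MEX1*, the maltose exporter of the chloroplast envelope, had 33, 17.4 and 29.8 CPM at 26 h, its lowest hour, against 36.1, 39.9 and 42 CPM at 21.5 h, its highest, and passed no test.

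**Figure D3:**
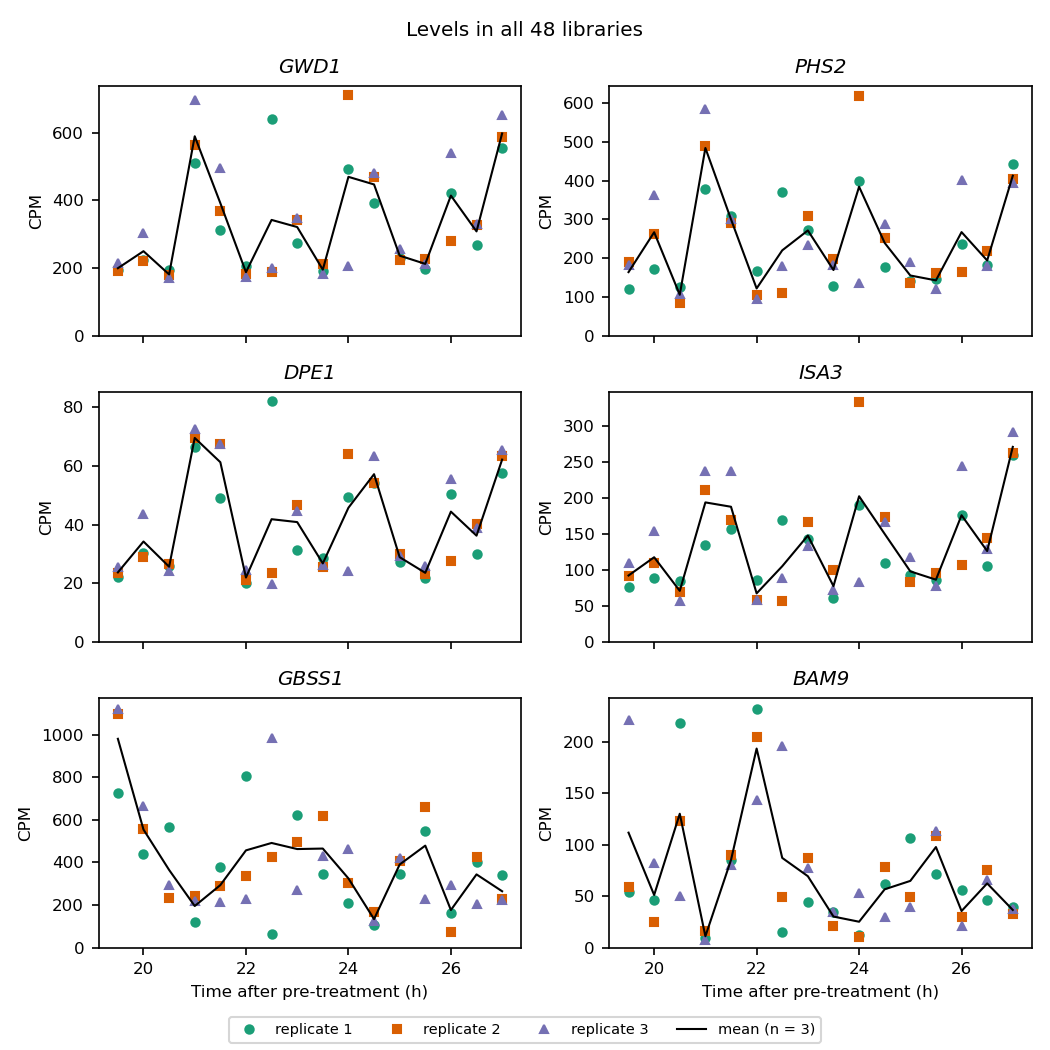
Level in CPM of 6 starch genes in each of the 48 libraries, by hour, with a symbol for each replicate number and a line through the mean of 3. *GWD1*, *PHS2*, *DPE1* and *ISA3* are high at 21 h and low at 22 h in all 3 libraries, *BAM9* is the reverse, and *GBSS1* is highest at 19.5 h. The first replicate at 22.5 h and the third at 24 h lie far from the other two in *GWD1*.

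The study asked for expression rhythms with periods of a few hours, so variation with periods of 2 to 5 h was tested next. It was called in 7 of 37 genes (18.9%), against 6.39% of all genes tested. At an unadjusted p of 0.05 (edgeR), 25 of 37 (67.6%) passed, against 29.4%. The terms tested can also take up slow variation that is neither linear nor quadratic, so a call is not confined to these periods. The 7 were *SS4*, *GWD1*, *PWD*, *BAM1*, *BAM9*, *AMY3* and *DPE1*, 1 of synthesis and 6 of breakdown. Their adjusted p ran from 0.0266 to 0.0288. Fitted periods of these 7 lay between 2.8 and 3.2 h. Genes without a call also had fitted periods in this range, such as *PGI1* at 3.2 h and *SEX4* at 2.9 h. In the 7 called genes the fitted curve took up 16.4% (*SS4*) to 35.6% (*BAM1*) of the variance left after the replicate factor and the linear and quadratic trend. Most of that variance thus lay outside the fitted curve. *GWD1*, *AMY3* and *DPE1* had the same fitted period of 2.90 h and first peak at 21.2 h, with amplitudes of 0.44 ± 0.12, 0.46 ± 0.11 and 0.46 ± 0.11 on the log2 scale (SE). *PWD* and *SS4* peaked at 21.6 and 21.5 h with smaller amplitudes of 0.28 ± 0.09 and 0.18 ± 0.06. *BAM9* had the largest amplitude, 0.78 ± 0.23, with a first peak at 22.3 h. *BAM1* had a small one, 0.14 ± 0.03, with a first peak at 22.6 h. A first peak is the first maximum of the fitted curve from 19.5 h on. Counted so, *BAM9* and *BAM1* came later than the other 5. A repeating curve also has peaks before that start, so no order between the genes follows. Over single hours, *BAM1* had 159, 183 and 183 CPM at 22 h, against 135, 132 and 124 CPM at 21 h, with no overlap. *PWD* had 137, 128 and 120.1 CPM at 22 h, against 178, 203 and 236 CPM at 21 h, and *SS4* had 31.1, 28.6 and 25.3 CPM, against 49.4, 43 and 49.2 CPM. At 22 h *BAM1* was thus higher than at 21 h, while *PWD* and *SS4* were lower.

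The number of calls changed with the libraries used, for the starch genes and for all genes tested. Without the 16 libraries of replicate 2 no starch gene was called (edgeR, 4 genes at an unadjusted p under 0.05), and 0 of all genes tested. Without the 3 libraries of 19.5, 21.5, 24.5 or 25.5 h no starch gene was called either (17 to 21 genes at an unadjusted p under 0.05), against 1, 0, 9 and 1 of all genes tested, so the loss was not particular to starch genes. Leaving out replicate 1 of 22.5 h together with replicate 3 of 24 h, the count was 26 of 37 (70.3%), against 31% of all genes tested, and without the 26 h replicate 2 as well it was 28 (75.7%), against 35.8%. The 28 comprised 12 of 16 synthesis and 16 of 21 breakdown genes, and the adjusted p of *AMY3* was then 5.85e-15, that of *DPE1* 5.60e-13, that of *GWD1* 9.66e-12 and that of *SS2* 3.60e-09. The genes still without a call were *PGI1*, *APL2*, *APL4*, *ISA1*, *SEX4*, *BAM5*, *AMY2*, *LDA* and *MEX1*. Those libraries had been chosen because they stood apart from the other 2 of their hour, that of 26 h after the values were seen. Leaving out such libraries lowers the spread between replicates that the test uses. The lower adjusted p and the higher counts can therefore follow from that choice and are no added evidence.

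The hours at which the profiles turned are described by the steps 22 h against 21 h and 25.5 h against 24.5 h, which were chosen after the values were seen and carry no test. At 22 h, 15 of 37 genes were lower than at 21 h in all 3 libraries without overlap (40.5%, against 22.6% of all genes tested) and 11 were higher (29.7%, against 21.8%). At 25.5 h, 11 were lower than at 24.5 h (29.7%, against 16.5%) and 13 were higher (35.1%, against 16.5%). At both steps 11 genes were lower: *SS4*, *GWD1*, *PWD*, *BAM4*, *AMY3*, *ISA3*, *LDA*, *DPE1*, *DPE2*, *PHS1* and *PHS2*. Such a pair of steps was seen in 6.38% of all genes tested. At both steps 8 genes were higher: *APS1*, *SS2*, *SS3*, *SBE2.2*, *LSF2*, *BAM1*, *BAM2* and *BAM6*, a pattern seen in 6.92% of all genes tested. Apart from *SS4*, every gene lower at both steps was on the breakdown side, whereas those higher at both were 4 of synthesis and 4 of breakdown. *PGM1* was lower at 22 h and higher at 25.5 h. In *GWD1* the 25.5 h libraries had 198, 227 and 213 CPM, against 393, 468 and 481 CPM at 24.5 h. In *BAM2* they had 49.98, 54.3 and 42.3 CPM, against 24.7, 26.8 and 23.6 CPM at 24.5 h. The *GWD1* libraries were thus all lower at the later hour and the *BAM2* libraries all higher, without overlap.

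**Figure D4:**
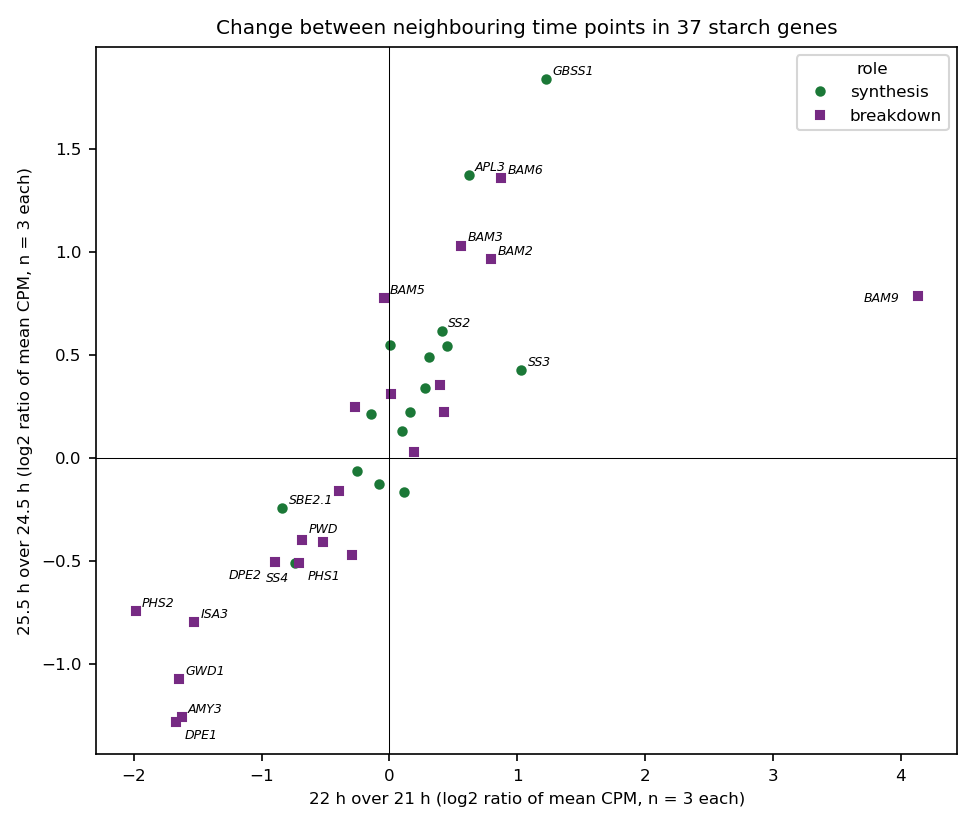
Log2 ratio of mean CPM at 22 h over 21 h (horizontal axis) and at 25.5 h over 24.5 h (vertical axis) for the 37 tested starch genes, 3 libraries per hour, with a symbol for each side of the pathway. *GWD1*, *AMY3* and *DPE1* lie at the lower left, *BAM2*, *BAM6* and *GBSS1* at the upper right, and *BAM9* far to the right at a log2 ratio of 4.13.

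Beside the promoters printed above, of the 11 genes lower at both steps, 4 held a G-box (*SS4*, *DPE1*, *PHS1* and *PHS2*), and of the 8 higher at both, 2 did (*SS3* and *BAM2*). Among all 38 members 11 did (28.9%). A link between the G-box and the steps was not tested. The evening element was in *PWD* and *ISA3*, lower at both, and in *PGM1*, lower at the first and higher at the other.

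Variation in the 7 remaining time terms, built from periods of 1.6 to 1 h and named variation faster than 2 h, was tested last. It was called in 24 of 37 genes (64.9%), against 35.9% of all genes tested, 8 on the synthesis and 16 on the breakdown side. Slow variation that is neither linear nor quadratic can also enter these terms, so a call is not confined to that band. The lowest adjusted p were those of *PWD* (3.83e-05), *BAM3* (7.32e-05) and *SS4* (9.08e-05). With samples every 0.5 h such variation can be a sharp difference between neighbouring hours, as in *BAM9*. Its mean was 130.1 ± 84.3 CPM at 20.5 h, 11 ± 4.36 CPM at 21 h and 85.1 ± 5.03 CPM at 21.5 h (SD, n = 3 each). Without replicate 2 none was called (edgeR, 16 genes at an unadjusted p under 0.05), against 0.137% of all genes tested.

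Another 17 genes work beside the enzymes, among them granule initiation proteins and the sugar transporters of the chloroplast envelope. Of the 16 tested (*APS2* was too low), 10 differed between time points (62.5%, against 64% of all genes tested). Among them 4 rose (25%, against 29.7%) and 1 fell (6.25%, against 25.8%). None was called for 2 to 5 h variation, against 6.39% of all genes tested. At an unadjusted p under 0.05 (edgeR) 3 passed (18.75%, against 29.4%). *BE1*, a branching enzyme homologue of uncertain activity, rose by 0.70 ± 0.15 (adjusted p = 1.89e-04), and *PTST3*, *SS5* and *BAM7* rose by 0.31 ± 0.06, 0.28 ± 0.06 and 0.25 ± 0.07 (adjusted p = 4.85e-05, 3.53e-04 and 0.00478). *PTST3* and *SS5* act in granule initiation and *BAM7* is a nuclear protein with a beta-amylase-like domain. *TPT*, the triose phosphate exporter, fell with a trend of -0.80 ± 0.11 (adjusted p = 5.62e-07). *LESV*, a granule-binding protein, was lower at 22 h than at 21 h and at 25.5 h than at 24.5 h without overlap, as *BE1* was.

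Levels can be compared between genes only per length. Per kilobase of exon, the most abundant members were *BAM3* at 209, *APS1* at 179 and *GBSS1* at 174 CPM per kilobase, averaged over the 48 libraries. *APL3* at 98.9, *PHS2* at 77 and *APL1* at 73 CPM per kilobase came next, with library ranges that overlapped those of *BAM3*, *APS1* and *GBSS1*. Among the beta-amylases *BAM1* stood at 59.3, *BAM9* at 36.1 and *BAM2* at 18.5 CPM per kilobase, and *BAM5* was the lowest at 0.692. In the AGPase family *APL4*, at 1.21, was the lowest against *APS1*. Models of 12 members overlapped a gene on the other strand and those of *LSF1*, *AMY1* and *PHS2* a gene on the same strand, and since the strand setting of the counting is not stated, part of those counts may belong to the neighbour.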

How the data were processed

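RNA was extracted from cut leaves and sequenced on an Illumina HiSeq. FastQC served the authors for read quality and trimming, STAR for mapping to TAIR10, and HTSeq for counting. The authors deposited raw whole-number read counts for 34262 genes. The sources used here give no tool versions, no strand setting and no annotation release. A further column of values (1 in all) belonging to no sample was not used. Time and replicate number were taken from the sample labels.

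Counts were scaled with TMM and tested with edgeR 4.0.16 (R 4.3.3, quasi-likelihood F test) on 17562 genes (mean over libraries of 1 CPM or more), with the replicate number as a factor, as in the study's methods, and Benjamini-Hochberg adjustment over all of them (threshold 0.05). Time entered as 15 orthonormal terms: a linear and a quadratic trend, 6 terms at 4, 2.67 and 2 h, tested jointly as 2 to 5 h variation, and 7 faster terms. No other term slower than 4 h was fitted, so slow variation that is neither linear nor quadratic can enter both the 6 and the 7 terms. Period, amplitude and first peak were fitted on log2(CPM + 1), with a pseudocount of 1, over periods of 2 to 5 h in steps of 0.1 h. No 2 libraries of the same hour were copies: among 48 such pairs none was identical, and chi-square over its degrees of freedom was never below 8.06. Each library was therefore counted as 1 replicate. Counts of libraries from different hours were not compared in this way. Correlations between libraries were taken on log2(CPM + 1) minus each gene's mean over the 48 libraries, so they compare deviations and not levels. Over all pairs of libraries the highest such correlation over genes above 10 CPM was 0.871.

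The members, the 17 related genes, the markers and the alternatives were chosen with earlier results of these data known. All members are named by identifier, with values per library for the gene of the widest range in each role and for those with 2 to 5 h variation, and the others mostly by range or by their first and last hours. Gene models, lengths and promoter sequences came from RefSeq TAIR10.1, in which all 38 identifiers were found, and were used only with their own coordinates. Alternatives were no replicate block, DESeq2 size factors, other filters, the DESeq2 1.42.0 likelihood ratio test, limma-voom (limma 3.58.1), and libraries left out.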

Additional observations from a re-analysis of the deposited data

How the results depend on the processing

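No called slow trend changed sign in any of 27 alternatives, and of the comparisons of a called trend with an alternative 412 passed the test again and 20 did not. The trends of *PGI1*, *APS1*, *APL1*, *SS1*, *SS2*, *SS4*, *LSF1*, *LSF2* and *BAM6* passed in all 27. Against 7 members in the main analysis, 2 to 5 h variation was called in 18 with the DESeq2 likelihood ratio test (48.6%, against 18.8% of all genes tested). It was called in 7 with limma-voom (18.9%, against 4.44%) and in 7 with DESeq2 size factors (18.9%, against 6.37%). With no filter it was called in 7 (18.4%, against 2.64%) and with a filter at 5 CPM in 8 (22.9%, against 8.69%). Leaving out 1 replicate gave 0 to 7 members (0 to 9.98% of all genes tested), and leaving out 1 time point gave 0 to 20. These were 2 without 21 h (5.41%, below the 8.09% of all genes tested), 3 without 27 h (8.11%, against 3.39%), 13 without 23 h (35.1%, against 15.6%), 16 without 20, 24 or 26.5 h (43.2%, against 16.7, 9.21 and 13.1%), 18 without 20.5 h (48.6%, against 18.7%) and 20 without 22.5 or 26 h (54.1%, against 26.9 and 18.6%). Variation faster than 2 h was called in 24 members (35.9% of all genes tested). It was called in 12 without replicate 1, 0 without replicate 2 and 20 without replicate 3 (16.2, 0.137 and 28% of all genes tested). When 1 time point was left out, it was called in 16 to 26 (18.7 to 37.8%). Any difference was called in 29 members (64% of all genes tested) and in 12 without replicate 2, where 8.92% of all genes tested passed. It was called in 24 and 23 without replicates 1 and 3 (40.8 and 50%). When 1 time point was left out, it was called in 27 to 32 (57.1 to 69.4%). A slow trend was called in 11 to 17 members when 1 replicate was left out (38.1 to 47.1% of all genes tested). With 1 time point left out, it was called in 12 to 22 (50.7 to 56.8%). A slow fall was called in 8 to 12 and 8 to 13 members when 1 replicate or 1 time point was left out (18.1 to 22.5% and 23.7 to 26.4%). A slow rise was called in 5 members, in 3 without replicate 2 or 20.5 h, in 1 without 27 h, in 8 without 21.5 or 25.5 h and in 9 without 21 h, while 20 to 30.4% of all genes tested rose when 1 replicate or time point was left out.

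Leaving out replicate 1 of 22.5 h together with replicate 3 of 24 h, a slow rise was called in 9 members (24.3%, against 31.3% of all genes tested). Variation of 2 to 5 h was called in 26 (31% of all genes tested). Leaving out replicate 2 of 26 h as well, an alternative chosen after seeing the data, 25 members had a trend (58.3% of all genes tested). Of these, 12 had a rise (30.7%), and 28 members had 2 to 5 h variation (35.8%).

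Without the replicate block, 30 members differed between time points (67% of all genes tested) and 17 had a trend (56.3%). Variation of 2 to 5 h was called in 12 (32.4%, against 10.3% of all genes tested) and faster variation in 26 (39.3% of all genes tested). Libraries of the same number did not go together on average. Their deviations from the time point mean correlated at -0.0373 on average, and 31.9% of the same-numbered pairs were above 0.1. Between libraries of different numbers the average was 0.0178. That value is no separate contrast, since the deviations within an hour cancel.

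The lowest counts, and so the least precise levels, were those of *AMY1*, at 9 to 151 reads per library, and *BAM5*, at 16 to 124.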
